A study of Mus musculus with 4 samples.

Results

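The ubiquitin-conjugating E2 enzymes were followed across 2 lists of Elavl binding sites from mouse. They were taken as the protein-coding genes of the GRCm38.p6 RefSeq gene table whose symbol begins with Ube2, whether or not they carried a site. The rule gave 37 genes of 21900 protein-coding genes. It reads the symbol alone, so it also takes genes whose products are not active E2 enzymes, such as Ube2v1 and Ube2v2, and it leaves out E2 enzymes with other names, such as Cdc34.

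Elavl sites were mapped by HITS-CLIP, which joins proteins to nearby RNA by ultraviolet irradiation, trims the RNA with RNase, pulls down the protein of interest with an antibody and sequences the attached fragments. There were 3 samples of brain cortex and 1 sample of N2A, an established mouse neuroblastoma line. No genotype or treatment was named for either group, the growth conditions were described only as standard, and the sources used here do not give the antibody, strain or age, although the name of the cortex list holds the unexplained term 2month. The 3 cortex samples were represented by 1 common list of 97775 peaks and N2A by 1 list of 7335 peaks. The degenerate linker was 25 nt long in the cortex samples and 7 nt long in N2A, so linker and group cannot be told apart.

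Protein is tagged with ubiquitin in a relay: an E1 enzyme activates ubiquitin, an E2 enzyme takes it over on a cysteine, and an E3 ligase brings the loaded E2 to the substrate. The E2 largely sets which kind of ubiquitin chain is built, and some E2 enzymes carry relatives such as NEDD8 or ISG15 in place of ubiquitin. In neurons this system controls the turnover of synaptic and cytosolic proteins. The Elavl proteins (Elavl1, or HuR, in most cells and Elavl2, Elavl3 and Elavl4 mainly in neurons) bind U-rich and AU-rich RNA, both in introns and in 3′ untranslated regions, where they are known to act on splicing, RNA stability and translation.

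A peak was 50 to 51 nt long and was counted for a gene when it overlapped the gene's annotated span by at least 1 nt. The authors' peak calling attached a p-value to every peak, which here orders the peaks of 1 list and is called p below. The lists hold no read counts, so depth is unknown. With 1 list per group no value belonged to a single sample and no spread between replicates could be computed. Counts of Ube2 genes are therefore described beside the same count over all protein-coding genes, with no test, and shares of peaks carry Wilson 95% intervals, which cover counting error only. Whether a gene without a peak was unbound or little expressed cannot be told apart from these lists, and in the cortex, a mixed tissue, neither can fewer cells of a type and less RNA per cell. Markers were read as a check of the labels: 7 of 8 cortical neuron markers and 7 of 8 glial markers carried cortex peaks and 0 carried N2A peaks, while 6 of 12 sympathoadrenal markers, including Phox2a and Hand2, carried N2A peaks and 5 of the 12 carried cortex peaks. Slc32a1 and Gfap had no cortex peak, and Th and Dbh were among the 6 without an N2A peak. Over all protein-coding genes, 40.8% held a cortex peak and 14.5% an N2A peak. The 5 of 12 sympathoadrenal markers in cortex (41.7%) were thus near the general share.

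Most Ube2 genes carried Elavl peaks in cortex. At least 1 cortex peak lay in 27 of 37 Ube2 genes, or 73.0%, against 40.8% of all protein-coding genes. At least 1 N2A peak lay in 15 of them, or 40.5%, against 14.5%. Both lists marked 14 genes, or 37.8%, against 13.3%. Among genes with a cortex peak, the share that also held an N2A peak was 51.9% for Ube2 genes and 32.6% for all protein-coding genes, and among genes with an N2A peak 93.3% and 91.5% held a cortex peak. The genes in both lists included Ube2b, Ube2d3, Ube2e2, Ube2g1, Ube2g2, Ube2h, Ube2j1, Ube2k, Ube2l3, Ube2m, Ube2n, Ube2w and Ube2z. Cortex peaks alone were listed for 13 genes, and Ube2c was the 1 gene with an N2A peak alone.

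The counts were also read by gene length and by peak strength. Ube2 genes had a median span of 30.4 kb, against 17.1 kb over all protein-coding genes. Within the class of 10 to 100 kb, 24 of 28 Ube2 genes (85.7%) held a cortex peak against 50.1% of all coding genes of that class, and 12 (42.9%) held an N2A peak against 18.8%. At p under 0.001, the same 27 Ube2 genes (73.0%) held a cortex peak against 28.3% of coding genes. In N2A that threshold left 3 Ube2 genes (Ube2d3, Ube2w and Ube2z), or 8.11%, a share near the 7.57% of all coding genes. When the cortex list was shortened to its 7335 strongest peaks, the length of the N2A list, 16 Ube2 genes (43.2%) remained against 13.8% of coding genes.

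**Figure D1:**
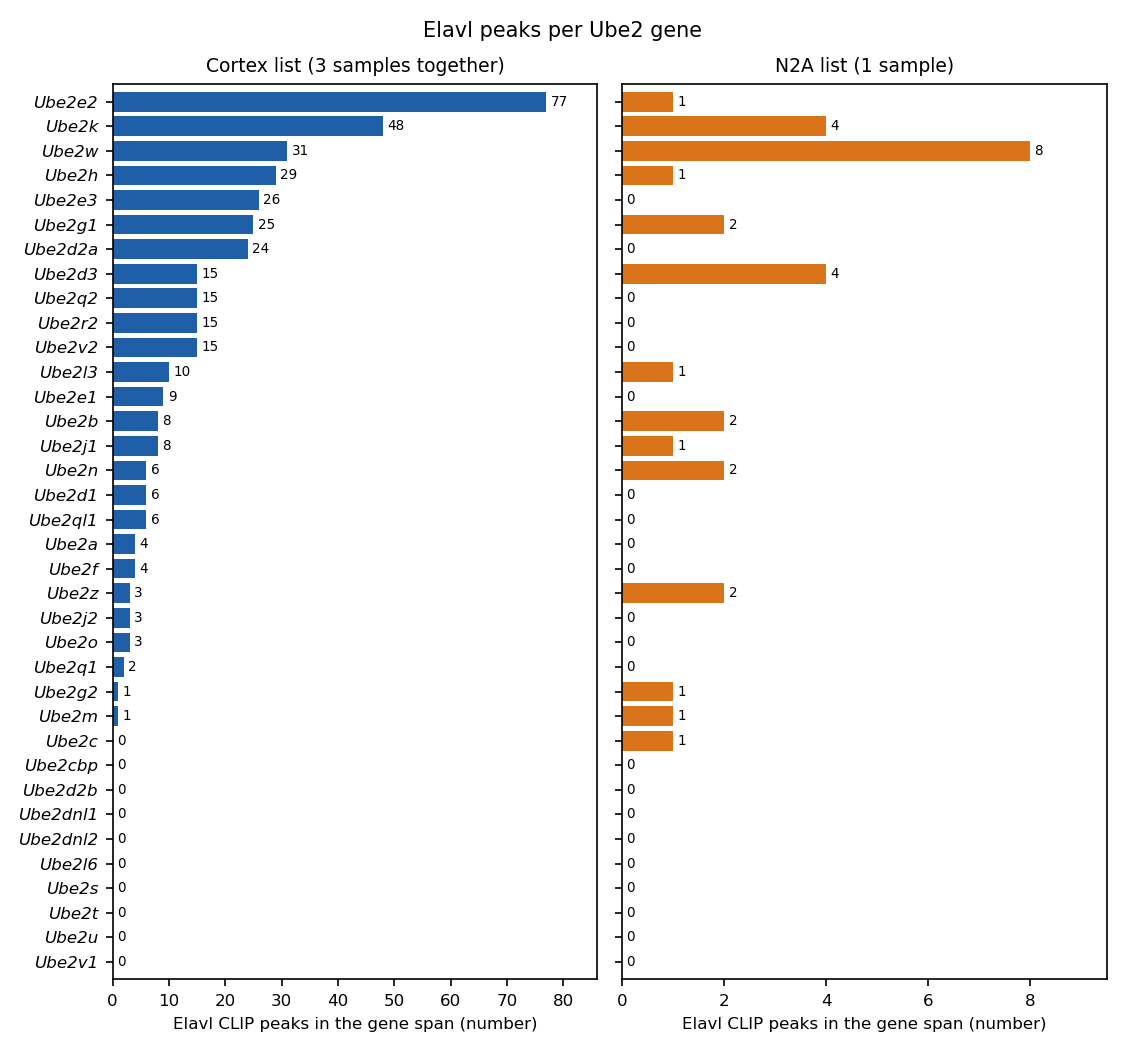
Number of Elavl peaks in the annotated span of 36 Ube2 genes, in the cortex list of 3 samples together (left) and the N2A list of 1 sample (right, on its own scale). Ube2e2 leads in cortex with 77 peaks, Ube2w leads in N2A with 8, and 9 genes at the bottom have no peak in either list.

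The 395 cortex peaks in Ube2 genes were 0.404% of the cortex list, and the 32 N2A peaks were 0.436% of the N2A list. A large part of the cortex count lay in a few genes. Ube2e2 alone held 77 peaks, or 19.5%, and Ube2e2, Ube2k and Ube2w together held 156, or 39.5%. In N2A, Ube2w held 8 peaks, or 25.0%, and Ube2w, Ube2d3 and Ube2k together held 16. Over the 27 genes with a cortex peak the median was 8 peaks, against 4 over all coding genes with a cortex peak, and 3 genes held 1 peak.

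Longer Ube2 genes held more cortex peaks. Spearman's rho between span and cortex peaks was 0.84 over the 27 genes with a peak, and 0.59 over the 8939 coding genes with a peak. In N2A it was 0.25 over 15 genes and 0.13 over 3184. These are descriptions across genes, which share 1 list and are not replicates. Per unit of length, Ube2 genes with peaks had a median of 2.58 cortex peaks per 10 kb, against 1.24 for all coding genes with peaks. For N2A the medians were 0.654 and 0.489. Ube2 genes with a cortex peak had a median span of 36.8 kb and those without one 7.75 kb, but the 158 kb of Ube2cbp and the 71.3 kb of Ube2u were without a peak.

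**Figure D2:**
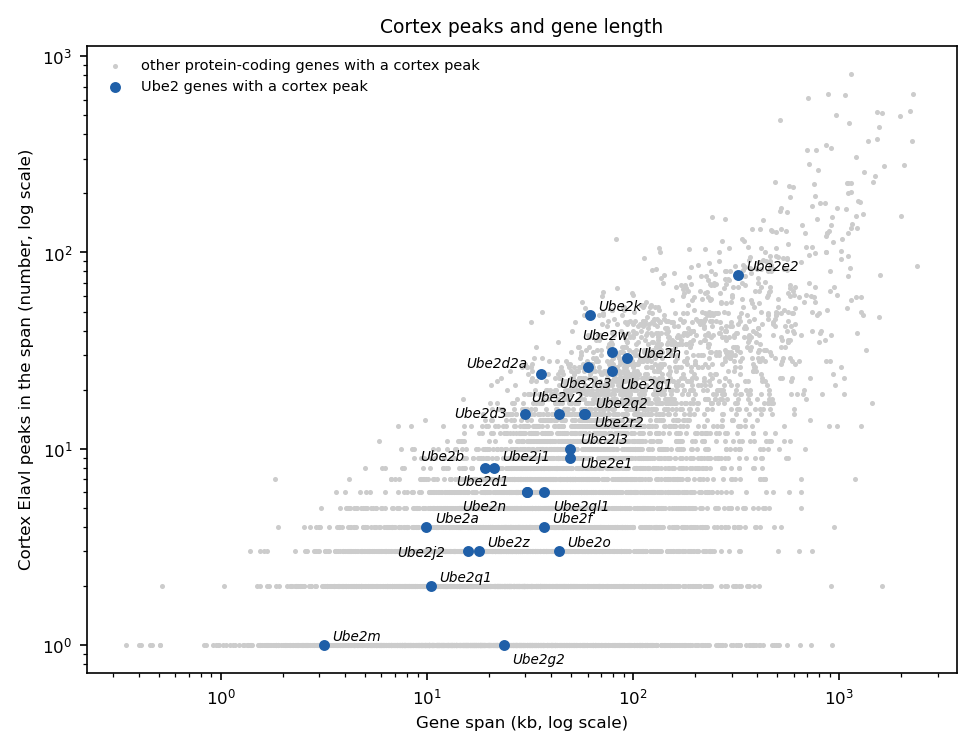
Cortex Elavl peaks per gene against gene span in kb, both on log scales, for all protein-coding genes with a cortex peak (grey) and 26 Ube2 genes among them (blue). Peaks grow with span from Ube2m, with 1 peak in 3.16 kb, to Ube2e2, with 77 in 321 kb, and Ube2k stands high for its length with 48 in 61.7 kb.

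The D family holds the E2 enzymes that work with the widest range of E3 ligases. Ube2d3 (chromosome 3, plus strand, 30.0 kb) carried the strongest cortex peak of the 37 genes, at chr3:135465877-135465927, 2.29 kb before the annotated gene end, with p of 1.11e-128 and rank 429 of the cortex list. Its second strongest, at chr3:135465285-135465336, had p of 2.07e-82. In all it held 15 cortex peaks, 7 of them within 5 kb of the gene end. N2A gave 4 peaks in Ube2d3. The strongest, at chr3:135465880-135465930 with p of 4.41e-11, lay 3 nt from the start of the strongest cortex peak, and another, at chr3:135465288-135465338 with p of 0.00954, lay on the second strongest one. So the same 2 places close to the end of Ube2d3 were marked in both lists, and 3 of its 4 N2A peaks overlapped a cortex peak.

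The other D genes had cortex peaks alone or none. Ube2d2a (chromosome 18, plus strand, 35.6 kb) held 24 cortex peaks, 21 of them with p under 0.05, and 9 of them within 1 stretch of 5 kb. Its strongest, at chr18:35796675-35796725 with p of 4.58e-25, lay 10.4 kb before the gene end. Ube2d1 (chromosome 10, minus strand, 30.4 kb) held 6 cortex peaks. Its strongest had p of 3.15e-28 and lay 0.0520 kb before the gene end, at chr10:71255031-71255082. Ube2d2b, a gene of 1.62 kb inside the span of Evi5, had 0 peaks in both lists. In the D family, cortex peaks thus lay in 3 of 4 genes and N2A peaks in 1 of 4. The shares were 73.0% and 40.5% over all Ube2 genes, and 40.8% and 14.5% over all coding genes.

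E family enzymes have a core like that of the D family, with an added stretch at the start of the protein. All 3 genes held cortex peaks, 112 in all, and the peaks lay mostly far from the gene ends. Ube2e2 (chromosome 14, minus strand, 321 kb) had 77 cortex peaks, of which 59 had p under 0.05 and only 2 lay within 5 kb of the end. The median distance to the gene end was 227 kb in a span of 321 kb, so most of its peaks lay in the part of the gene nearest its start. The strongest, at chr14:18830206-18830257 with p of 7.11e-33, lay 257 kb from the end. A single N2A peak, at chr14:18829775-18829825 with p of 0.0583, lay 256 kb from the end and overlapped a different cortex peak. Near the end itself, the cortex peak at chr14:18573903-18573953 had p of 1.06e-19 and lay 0.341 kb away.

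Ube2e3 (chromosome 2, plus strand, 60.6 kb) held 26 cortex peaks with 2 near the end, and its strongest, with p of 8.61e-17 at chr2:78880606-78880657, lay 48.1 kb away. Ube2e1 (chromosome 14, 49.3 kb) held 9, with a lowest p of 4.57e-06. Of the peaks in Ube2e1, 1 lay on the opposite strand, with p of 3.81e-05, and its span overlaps that of Nkiras1, so some of these peaks may belong to either gene. Neither Ube2e1 nor Ube2e3 had an N2A peak.

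**Figure D3:**
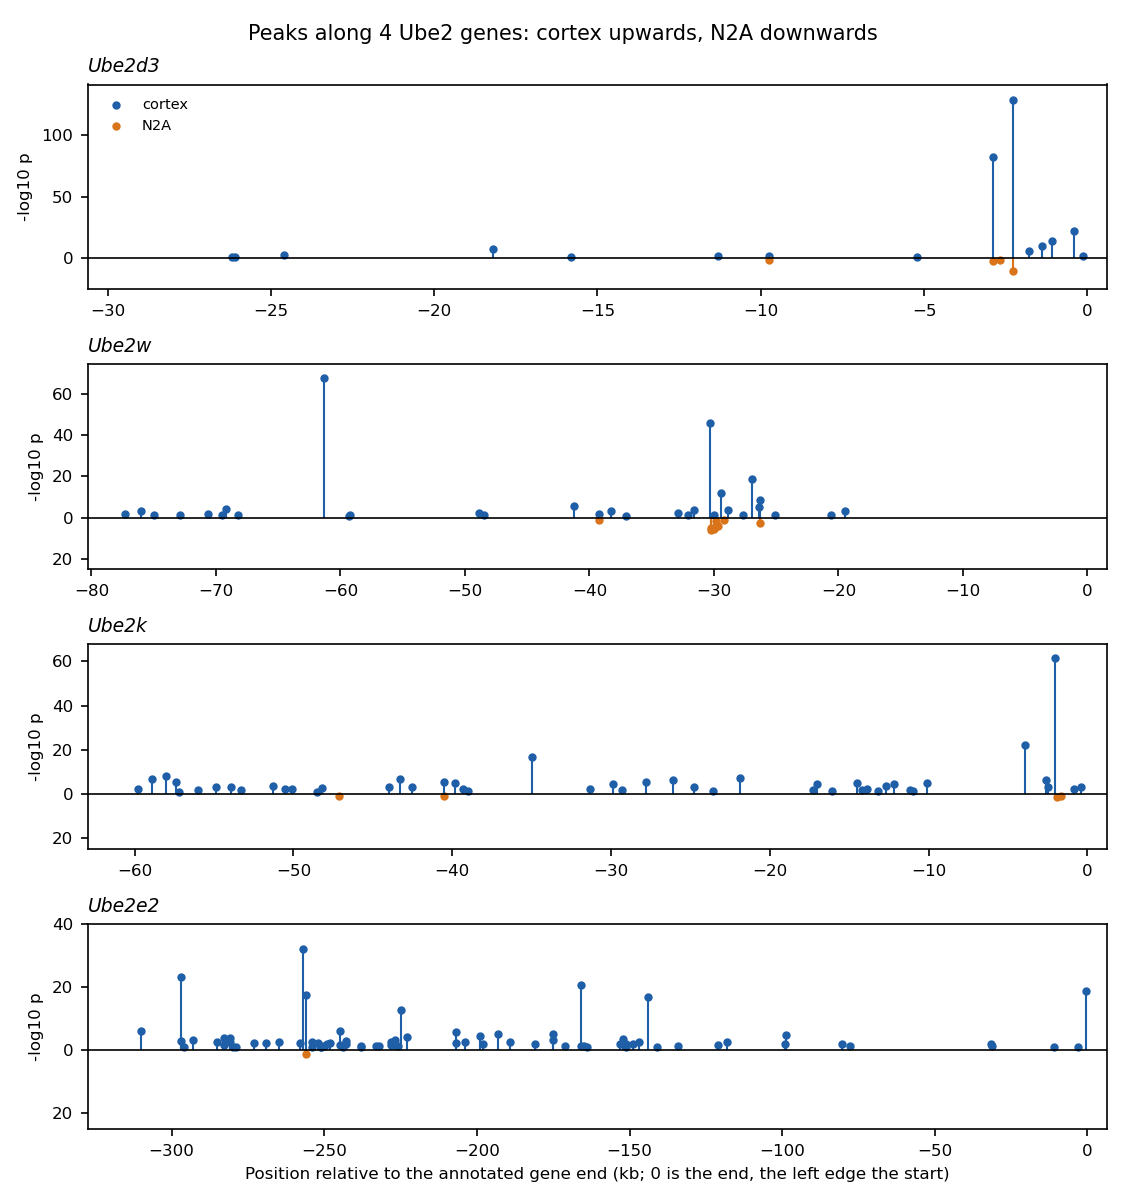
Elavl peaks along Ube2d3, Ube2w, Ube2k and Ube2e2, placed by distance in kb from the annotated gene end (0 at the right, gene start at the left edge), with cortex peaks drawn upwards and N2A peaks downwards by the size of -log10 p on the scale of each panel. The strongest cortex peaks of Ube2d3 and Ube2k lie 2.29 and 2.06 kb from the end, those of Ube2w and Ube2e2 61.3 and 257 kb from it.

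Ube2k and Ube2w carried many cortex peaks and, with Ube2d3, the most N2A peaks by count. Ube2k, known for binding huntingtin and for building ubiquitin chains with its own ubiquitin-binding domain, lies on chromosome 5 (plus strand, 61.7 kb). It held 48 cortex peaks, 44 of them with p under 0.05, spread over the whole span with 6 within 5 kb of the end. The strongest, at chr5:65596876-65596926 with p of 2.48e-62, lay 2.06 kb from the end. Its 4 N2A peaks were weak, with p from 0.0613 to 0.0836. The N2A peaks at chr5:65597033-65597084 and chr5:65597255-65597305 lay 1.91 and 1.68 kb from the end, close to the strongest cortex peak without overlapping a cortex peak, and the other 2 lay 40.5 and 47.1 kb from it. Of the 4, 1 overlapped a cortex peak.

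Ube2w attaches ubiquitin to the amino terminus of proteins. It lies on chromosome 1 (minus strand, 78.7 kb) and held 31 cortex peaks and 8 N2A peaks, the most N2A peaks of any Ube2 gene. The strand was read from these same peaks, and the distances to the end of Ube2w rest on it. None of the 39 was within 5 kb of the annotated end, and the nearest lay 19.5 kb away. The strongest cortex peak, with p of 2.97e-68 at chr1:16602094-16602145, lay 61.3 kb from the end and had no N2A peak on it. The second strongest, at chr1:16571054-16571104 with p of 1.48e-46, lay 30.3 kb from the end inside a cluster seen in both lists: 7 of the 8 N2A peaks fell between chr1:16567065 and chr1:16571082. The lowest N2A p of the gene, 1.78e-06, belonged to the peak at chr1:16570957-16571008, 46 nt from the nearest cortex peak, and 4 of the 8 N2A peaks overlapped a cortex peak.

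The E2 enzymes of degradation at the endoplasmic reticulum all held cortex peaks. Ube2j1 and Ube2j2 are anchored in the membrane of the endoplasmic reticulum, and Ube2g2 and Ube2g1 are soluble partners of ligases there. Ube2j1 (chromosome 4, plus strand, 21.0 kb) had 8 cortex peaks, 6 of them within 5 kb of the end. The strongest, at chr4:33051094-33051144, 1.22 kb from the end, had p of 5.93e-114 and rank 521, the second lowest p of the 37 genes. At the same place N2A gave 1 peak, chr4:33051089-33051139, but with p of 0.0907, close to the upper limit of the list. Ube2g1 (chromosome 11, plus strand, 79.2 kb) had 25 cortex peaks, with the strongest at chr11:72684016-72684066 (p of 9.82e-19), 2.42 kb from the end. Of its 2 N2A peaks, that at chr11:72686370-72686420 (p of 0.0152) lay 0.0610 kb from the end on a cortex peak, and that at chr11:72684174-72684224 (p of 0.0182) lay 108 nt from one.

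Ube2g2 (chromosome 10, 23.7 kb) held 1 peak in each list. The cortex peak, at chr10:77639467-77639517 with p of 1.25e-04, lay 6.47 kb from the end, and the N2A peak, at chr10:77641475-77641526 with p of 0.0848, lay 1958 nt away from it. Ube2j2 had 3 cortex peaks with a lowest p of 6.47e-21 and no N2A peak. Within the role, Ube2j1 and Ube2g1 had an N2A peak on a cortex peak.

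Ube2n builds non-degradative ubiquitin chains together with Ube2v1 or Ube2v2, partners that lack the catalytic cysteine. Ube2n (chromosome 10, plus strand, 30.5 kb) had 6 cortex peaks, the strongest at chr10:95543456-95543507 with p of 1.21e-48, 2.15 kb from the end. Its 2 N2A peaks, at chr10:95542878-95542929 with p of 0.00351 and chr10:95543023-95543073 with p of 0.00116, lay 2.73 and 2.58 kb from the end and overlapped no cortex peak. Of the partners, Ube2v2 (chromosome 16, minus strand, 43.5 kb) had 15 cortex peaks, 8 of them within 5 kb of the end, with the strongest at chr16:15554850-15554900 (p of 2.11e-09, 3.87 kb from the end). Ube2v1, of 24.4 kb, had 0 peaks in both lists. The pair of partner genes thus differed: peaks were listed for Ube2v2 in cortex and for Ube2v1 in neither list.

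Ube2a and Ube2b are the mouse homologues of yeast RAD6 and act on histones and on stalled replication forks. Ube2b (chromosome 11, minus strand, 19.0 kb) had 8 cortex peaks, the strongest at chr11:51986320-51986370 with p of 1.15e-55, 1.18 kb from the end. Both of its N2A peaks lay there too: chr11:51986308-51986359, with p of 0.0221, overlapped that cortex peak, and chr11:51986408-51986458, with p of 0.0337, lay 38 nt from it. A second strong cortex peak of Ube2b, with p of 1.95e-38 at chr11:51996797-51996847, lay 11.7 kb from the end. Ube2a, on the X chromosome, had 4 cortex peaks with a lowest p of 4.77e-05 and no N2A peak.

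The E2 enzymes of the anaphase-promoting complex were without cortex peaks. Ube2c starts and Ube2s extends the ubiquitin chains with which this complex drives exit from mitosis. Ube2c (chromosome 2, plus strand, 2.97 kb) had 1 N2A peak, at chr2:164772552-164772602 with p of 0.00781, 0.300 kb from the end, and the nearest cortex peak was 16838 nt away. Ube2s, of 4.33 kb, had none. The difference between the lists in this pair of genes rests on 1 peak.

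The enzymes of NEDD8 and ISG15 had few peaks by count. Ube2m, an E2 of NEDD8 (chromosome 7, minus strand, 3.16 kb), had 1 cortex peak at chr7:13035434-13035485, with p of 2.63e-04, and its 1 N2A peak at chr7:13035393-13035444, with p of 0.0160, overlapped it 0.274 kb from the end. Ube2f, the other E2 of NEDD8, had 4 cortex peaks with a lowest p of 4.65e-06. Per 10 kb, Ube2m had 3.17 peaks in each list, and Ube2f had 1.09 in cortex and 0 in N2A. The medians of Ube2 genes with peaks were 2.58 in cortex and 0.654 in N2A. Ube2l6, the E2 of the interferon-induced modifier ISG15, had 0 peaks in both lists.

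Ube2l3 passes ubiquitin to ligases that form a thioester with it, such as parkin and the HECT ligases. It lies on chromosome 16 (minus strand, 49.5 kb) and had 10 cortex peaks, the strongest at chr16:17153000-17153051 with p of 3.30e-40, 0.986 kb from the end. The N2A peak at chr16:17152899-17152949, with p of 0.0598, lay 51 nt from a cortex peak. Ube2h, the E2 of the CTLH complex (chromosome 6, minus strand, 93.3 kb), had 29 cortex peaks, 7 of them within 5 kb of the end. Its strongest, with p of 8.06e-13 at chr6:30286608-30286658, lay 75.3 kb from the end, but its 1 N2A peak, at chr6:30214360-30214410 with p of 0.0179, lay 3.07 kb from the end on a weaker cortex peak. Ube2r2, a relative of Cdc34 that serves cullin-RING ligases (chromosome 4, plus strand, 57.4 kb), had 15 cortex peaks and no N2A peak. Its strongest, at chr4:41144010-41144060 with p of 4.13e-05, lay 49.3 kb from the end.

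Ube2z, which is charged by the E1 enzyme Uba6 and not by Uba1, had few peaks but strong ones. It lies on chromosome 11 (minus strand, 17.9 kb). Its 3 cortex peaks were led by chr11:96048507-96048558, with p of 4.30e-37, 1.08 kb from the end. Its N2A peak at chr11:96048580-96048631, 1.15 kb from the end, had p of 3.17e-14, the lowest N2A p of the 37 genes, and rank 684 of the N2A list, and lay 22 nt from the cortex peak without overlapping it. A second N2A peak, at chr11:96049560-96049611 with p of 0.0109, lay 82 nt from a cortex peak. Uba6 itself had 11 cortex peaks and 1 N2A peak. Ube2o, a large enzyme with both E2 and E3 activity, had 3 cortex peaks with a lowest p of 8.88e-06, and that peak straddled the annotated end.

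The Q family, whose members have an extended amino-terminal part, was marked in cortex alone. Ube2q1 (chromosome 3, plus strand, 10.4 kb) had 2 cortex peaks, the stronger at chr3:89782635-89782685 with p of 1.09e-59, 1.31 kb from the end. Ube2ql1 (chromosome 13, minus strand, 37.1 kb) had 6, with the strongest at chr13:69702947-69702998, p of 1.42e-43, 0.116 kb from the end. Ube2q2 (chromosome 9, plus strand, 58.2 kb) had 15, with the strongest at chr9:55158147-55158198, p of 7.90e-10, 49.3 kb from the end. Ube2q1 and Ube2ql1 were among the 10 genes with the lowest cortex p, and the shortened cortex list kept both.

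The 9 genes without a peak in either list (24.3%, against 57.9% of all coding genes) were Ube2cbp, Ube2d2b, Ube2dnl1, Ube2dnl2, Ube2l6, Ube2s, Ube2t, Ube2u and Ube2v1. Their spans ran from 0.929 to 158 kb with a median of 11.2 kb. Ube2t works with the ligase of the Fanconi anaemia pathway in DNA repair, and Ube2cbp is also known as Ube3d and is not an E2 enzyme. A gene without a peak was not shown to be unbound, since depth is unknown.

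The position of the peaks within the genes differed between the lists as deposited, which are of unequal length. Over the Ube2 genes, 82 of 394 cortex peaks on the gene's strand, or 20.8% (17.1 to 25.1%), lay within 5 kb of the annotated gene end, against 20.0% (19.8 to 20.3%) over all coding genes. In N2A the share was 19 of 32, or 59.4% (42.3 to 74.5%), against 80.1% (79.2 to 81.0%) over all coding genes. Of the 13 N2A peaks farther away, 8 were those of Ube2w, and without Ube2w the share was 79.2%. The lower N2A share of the Ube2 genes thus rested on 1 gene. In cortex, leaving out Ube2e2 gave 25.2%. At equal list length the Ube2 shares were 64.7% (47.9 to 78.5%) in cortex and 59.4% (42.3 to 74.5%) in N2A. All coding genes then gave 55.1% and 80.1%. Whether a peak lay in an intron, a coding exon or a 3′ untranslated region was not analysed here, because the gene table holds spans only.

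**Figure D4:**
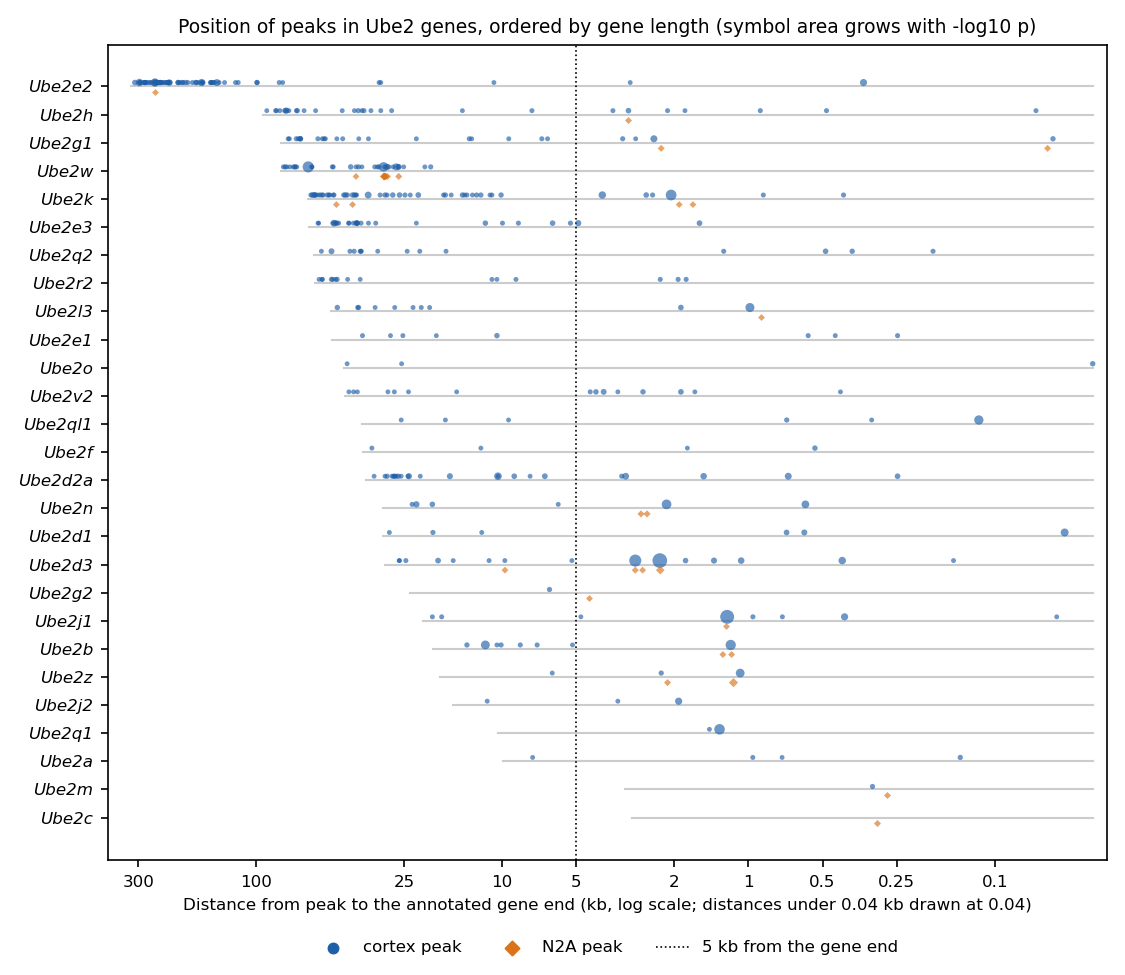
Distance in kb (log scale, gene end to the right) from each peak to the annotated end of its gene, for 27 Ube2 genes with a peak, ordered by span from the longest at the top. Blue circles are cortex peaks and orange diamonds N2A peaks on the gene's strand, symbol area grows with -log10 p, grey lines are the spans and the dotted line marks 5 kb. Large symbols lie mostly within 5 kb of the end, with Ube2w, whose peaks all lie left of the line, as the clearest exception.

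Peaks were also denser near the ends. In cortex the last 5 kb of the Ube2 genes held 6.16 peaks per 10 kb and the rest of their spans 2.60, against 4.30 and 1.06 over all coding genes. In N2A the values were 2.67 and 0.168, against 3.59 and 0.0657. Stronger cortex peaks lay nearer the end: the share within 5 kb was 9.89% (5.29 to 17.7%) of the peaks with p of 0.05 and above, 24.1% of those under 0.05, 34.8% of those under 0.001, and 64.7% (47.9 to 78.5%) of the 34 among the 7335 strongest of the list. All coding genes gave 12.3%, 22.3%, 31.9% and 55.1% by the same steps. With lists of equal length, the Ube2 genes gave 64.7% in the shortened cortex list and 59.4% in N2A, or 79.2% in N2A without Ube2w, and all coding genes gave 55.1% and 80.1%.

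The strongest peak of each gene showed the same position. In cortex it lay within 5 kb of the end in 18 of 27 genes (66.7%, against 61.0% of all coding genes with peaks) at a median distance of 2.06 kb, and in N2A in 12 of 15 (80.0%, against 83.4%) at 1.91 kb. In cortex the strongest peak of 14 of the 27 genes, or 51.9%, belonged to the strongest 5% of the list, against 26.8% of all coding genes with peaks. In N2A this held for 0 of 15, against 9.27%. The cortex shares take no account of the number of peaks per gene. Its median was 8 in Ube2 genes with a cortex peak, against 4 over all coding genes with one. The 5% of lists of such unequal length is not comparable between cortex and N2A, so each value is read beside all coding genes of its own list.

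Some peaks of both lists met at the same place, in a share near that of all coding genes. Of the 32 N2A peaks, 14 overlapped a cortex peak on the same strand by at least 1 nt, or 43.8% (28.2 to 60.7%), against 42.2% (41.1 to 43.4%) of the N2A peaks in all coding genes. Of the 18 that did not, 10 lay within 200 nt of a cortex peak, with a median distance of 142 nt over the 18. Over all coding genes, 1865 of 4006 such peaks lay within 200 nt, with a median of 228 nt. The genes with an overlapping N2A peak were Ube2b, Ube2d3, Ube2e2, Ube2g1, Ube2h, Ube2j1, Ube2k, Ube2m and Ube2w. Across the 14 genes in both lists, Spearman's rho between the numbers of cortex and N2A peaks was 0.38, as a description over genes of unequal length. No peak of either list lay in the 41 promoter windows, from 250 bases before to 50 after the start, that RefSeq gave for 30 of the 37 genes. Most of each window lies before the start, outside the gene's RNA, so nothing is read from this absence.

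Other genes of the ubiquitin pathway were read from a list of 94 symbols, of which 91 were in the gene table. Cortex peaks lay in 77 of the 91 (84.6%, against 40.8% of all coding genes) and N2A peaks in 39 (42.9%, against 14.5%). The 91 genes had a median span of 35.3 kb, against 17.1 kb over all coding genes, and these shares take no account of length. Among E1 enzymes, 8 of 9 had cortex peaks and 3 had N2A peaks, and Uba7, which activates ISG15, had no cortex peak, as Ube2l6 had none. Among E2 enzymes and E2-like genes of other names, 6 of 8 had cortex peaks and 3 had N2A peaks. Birc6, a very large protein with E2 activity that inhibits apoptosis, led with 60 cortex and 3 N2A peaks, and Cdc34, the relative of Ube2r2, had no cortex peak. Of 11 genes of ubiquitin and its relatives, 6 had cortex peaks and 2 (18.2%, near the 14.5% of all coding genes) had N2A peaks. Sumo3, with 2 peaks in each list, had an N2A peak with p of 5.49e-71.

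The E3 ligases and adaptors that work with these enzymes carried peaks in 57 of 63 genes (90.5%) in cortex and in 31 (49.2%) in N2A. Over all coding genes the shares were 40.8% and 14.5%. Ube3a, the ligase lost in Angelman syndrome, had 117 cortex and 11 N2A peaks with a lowest cortex p of 1.68e-203. Nedd4 had 40 cortex peaks, with a lowest p of 7.69e-235, and no N2A peak. The ligases were long, with a median span of 50.1 kb, against 17.1 kb over all coding genes. Of all coding genes of 10 to 100 kb, 50.1% held a cortex peak and 18.8% an N2A peak. No share by length was computed for the ligases.

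The Usp genes, whose products remove ubiquitin, were set beside them. Cortex peaks lay in 41 of 56 Usp genes (73.2%), in 73.0% of the Ube2 genes and in 40.8% of all coding genes. The Usp genes had a longer median span of 48.0 kb. N2A peaks lay in 13 Usp genes (23.2%), in 40.5% of the Ube2 genes and in 14.5% of all coding genes. Of the cortex and N2A peaks in Usp genes, 17.7% and 78.6% lay within 5 kb of the end. These shares were near the 20.0% and 80.1% of all coding genes. The differences between both gene families were not tested.

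**Figure D5:**
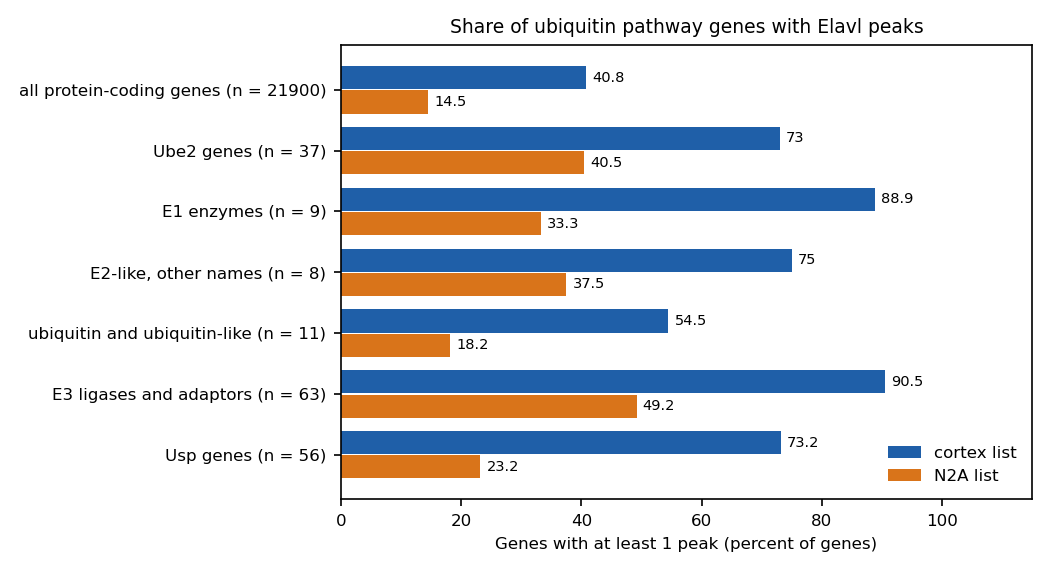
Percent of genes with at least 1 Elavl peak in the cortex list (blue) and the N2A list (orange), for all protein-coding genes, the 37 Ube2 genes, 4 lists of other ubiquitin pathway genes and the Usp genes, with the number of genes in each. Each list has a higher share than all protein-coding genes in both peak lists, with the E3 ligases highest in cortex and N2A at 90.5% and 49.2%. For ubiquitin and its relatives in N2A the difference is small, at 18.2% (2 of 11 genes) against 14.5%.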

How the data were processed

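Elavl HITS-CLIP data of 4 mouse samples (3 cortex, 1 N2A) were used as 2 deposited peak lists. Each list gives position, strand and a p-value made by the authors' peak calling. The deposited p-values run to 0.0999 in cortex and 0.0997 in N2A, and the sources used here do not give their adjustment, the caller or the pooling of the cortex samples. Novoalign, without a version, and hg19, a human build, stand in the submitters' processing notes with no role. The lists' chromosomes are those of mouse, and coordinates were read as GRCm38 and printed as deposited, without a stated first base. On the RefSeq promoter table's strands, 98.1% of peaks in genes lay on the gene's strand.

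Peaks were assigned on either strand to every coding span of the GRCm38.p6 table they touched, so a peak can count for 2 genes. Strand came from the promoter table for 30 Ube2 genes and from most of their peaks for 7, among them Ube2d2a, Ube2e3, Ube2g2, Ube2o, Ube2v2 and Ube2w. Distance to the gene end used peaks on the gene's strand. Shares have Wilson 95% intervals. No test was run, and depth per sample is unknown. Overlap counting was tested on simulated data. Python 3.11.15, pandas 2.3.3, numpy 2.4.6 and scipy 1.17.1 were used. The p-value thresholds, overlaps, windows and list length were varied.

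The genes and lists were chosen with earlier results of these data known. Full values are given for genes with an N2A peak, the 10 with most cortex peaks (4 tied at 15) and the 10 with the lowest cortex p. Peak sequences were not used here. Values of 1 Ube2 gene are not reported here, although it stands in the counts.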

Additional observations from a re-analysis of the deposited data

How the results depend on the processing

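The 8 counts and shares were recomputed under 57 alternatives, of which 39 stayed within 1.5 times the count or within the interval of the share. Leaving out a replicate was not possible, because each group has 1 list. With p under 0.001, Ube2 genes with an N2A peak fell to 3, genes in both lists to 3, cortex peaks to 142, N2A peaks to 6, and N2A peaks that overlap a cortex peak to 2, and the shares within 5 kb of the end became 34.8% in cortex and 33.3% in N2A. With p under 0.05, 9 genes stood in both lists and 9 N2A peaks overlapped a cortex peak. For genes in both lists and for overlaps, no share over all coding genes is given at these thresholds. No excess of Ube2 genes is therefore read from them. With the cortex list shortened to the length of the N2A list, 16 genes and 34 peaks remained in cortex, 64.7% of them near the end, and 6 N2A peaks overlapped one. A window of 2 kb gave 14.2% in cortex and 31.2% in N2A, and one of 10 kb gave 26.4% in cortex. Chosen after seeing the data, leaving out Ube2e2 gave 25.2% in cortex and leaving out Ube2w gave 79.2% in N2A. The stricter thresholds and the shorter list use fewer peaks by construction. Depth is unknown, so a gene without a peak has no upper limit. No paired analysis was possible because each group has 1 list and no result comes from a test.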

Other observations

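Some cortex peaks lay just past the annotated ends of Ube2 genes, on the gene's strand, within 5 kb and outside any coding span, and were not counted above. Ube2k had peaks 1.68 and 3.76 kb past its end, at chr5:65600664-65600715 with p of 0.0817 and at chr5:65602747-65602798 with p of 0.0244. Ube2e2 had a peak 1.05 kb past its end, at chr14:18572466-18572517 with p of 0.0163. Ube2d2a had peaks 1.94 and 2.33 kb past its end, at chr18:35809107-35809157 with p of 8.65e-05 and at chr18:35809497-35809548 with p of 0.00128. N2A had 0 such peaks.

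Of the 5 loci named after Ube2 genes that the table does not class as coding, Ube2d-ps, a long noncoding RNA gene of 22.6 kb on chromosome 11, held 2 cortex peaks and 0 N2A peaks. Ube2l3-ps1, Ube2n-ps1, Ube2nl and Ube2uos held 0 in both lists.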
